A study of Mus musculus with 8 samples.

Results

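The comparison set every lineage-depleted c-Kit+ cell recovered from the marrow of 2 wild-type mice aged 14 weeks against those from 2 wild-type mice aged 50 weeks, with 1 male and 1 female at each age. Members were all cells with 1000 or more unique molecular identifiers (UMIs, each marking 1 captured mRNA molecule) and under 10% of their UMIs in mitochondrial genes. They numbered 22078, or 47.8% of the 46159 cells that passed the same limits in the 8 mice of the series, with 12177 cells at 14 weeks and 9901 at 50 weeks. Each library held the haematopoietic stem and progenitor cells (HSPC) of 1 mouse, profiled by droplet single-cell RNA sequencing, and the other 4 mice were a male of 78 weeks, a female of 79 weeks and a male and a female of 95 weeks. Cells were pooled across lineages, so the comparison concerned the c-Kit progenitor pool as a whole and not stem cells alone. With 1 mouse of each sex at each age, an age difference cannot be told apart from a difference between these particular animals, and p-values rest on the spread between single mice.

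Haematopoietic stem cells (HSC) sit at the top of blood formation and give rise to multipotent progenitors (MPP), which feed the erythroid, megakaryocyte, granulocyte-monocyte, mast cell and lymphoid branches. The receptor tyrosine kinase c-Kit is carried by most of these immature cells, and removal of cells with mature lineage antigens enriches them from marrow. In the mouse, ageing is known to increase the number of cells with an HSC surface phenotype, to raise megakaryocyte and platelet genes such as Selp and Clu in them, and to reduce lymphoid output.

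The deposited matrices carried 29108 barcodes for the 4 mice, and the male and female kept 5109 and 7068 cells at 14 weeks and 4989 and 4912 at 50 weeks. Totals ranged from 92772729 to 145955506 UMIs per mouse, and medians per cell lay close together at 16692 to 17861 UMIs. Median mitochondrial shares were 4.99% and 4.96% in the 14-week male and female and lower, at 4.47% and 4.38%, in the 50-week pair. Pairs of libraries shared 3 to 14 barcodes over 6 pairs. Kit was detected in 66.6% to 74.5% of cells and the pan-leukocyte gene Ptprc in 48.5% to 59.8%, while no cell had a UMI of the T cell gene Cd3e. A count of 0 allows up to 0.0136% of cells with a Cd3e UMI and sets no limit on T cells, since most transcripts of a cell are not captured. Cells with 2 or more UMIs of a list of T and NK cell genes after thinning (a random draw of 1000 UMIs per cell) made up 0.0611% to 0.2205%.

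The first question was whether the lineage makeup of the pool differed between the ages. Each cell was thinned at random to 1000 UMIs and placed by marker genes in the gate (the marker list of a lineage) with the most UMIs, if it had 3 or more and no tie. Cells with no gate but 2 or more UMIs of a 26-gene stem cell list were called stem-marker cells. The granulocyte-monocyte gate was the largest class in all 4 mice, the erythroid gate came second in 3 of them and stem-marker cells second in the 50-week male.

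Stem-marker cells made up 10.6% (95% exact binomial interval 9.74 to 11.4) of the pool in the 14-week male and 9.73% (9.05 to 10.4) in the 14-week female. They made up 21.7% (20.6 to 22.9) in the 50-week male and 16.1% (15.1 to 17.2) in the 50-week female. Both older mice lay above both younger ones, with means of 10.2% ± 0.591 and 18.9% ± 3.93 (SD, n = 2 each), a 1.85-fold difference. The log2 ratio was 0.88 ± 0.31 (SE), with an unadjusted p of 0.00843 and an adjusted p of 0.0758 over the 9 classes by edgeR on the cell counts, so the difference did not pass the threshold of 0.05. It passed in 4 of 10 alternatives, among them another random draw of the thinned UMIs (adjusted p = 0.0154) and the fit of the 4 mice alone (adjusted p = 0.0130). The exact two-sided permutation test of 2 against 2 mice gave p = 0.333, the smallest it allows. When the 5 stem-list genes that passed the test below were taken out of the list, the log2 ratio was 0.71 with an adjusted p of 0.218. That shorter list still held the abundant gene Ifitm3, given with the marker lists below. The class depended on thinning, since a deeper cell more often reaches a gate. At 3000 UMIs per cell it held 1.02% and 1.05% of cells at 14 weeks and 2.21% and 1.44% at 50 weeks. With no thinning it held 0.313% and 0.0990% against 0.361% and 0.0814%, where the ages overlapped (log2 ratio 0.15). The binomial intervals cover counting error only, not differences between mice.

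The erythroid gate held 27.4% (26.2 to 28.6) of cells in the 14-week male and 34.3% (33.2 to 35.5) in the 14-week female, against 19.1% (18.0 to 20.2) and 25.1% (23.9 to 26.3) in the 50-week male and female. The groups did not overlap, but the 14-week male lay only slightly above the 50-week female. The log2 ratio was -0.48 ± 0.31 with an adjusted p of 0.356 in the edgeR test. Cells in this gate also carried more UMIs in the 14-week female, with a median of 30864 against 16475 to 19526 in the other 3 mice, and the part of this in the summed erythroid genes was not tested.

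Smaller gates leaned the other way. Basophil and mast cell gates held 2.39% and 1.81% of cells in the 14-week male and female and 3.31% and 2.73% in the 50-week pair. Dendritic gates held 1.80% and 1.84% against 3.05% and 2.16%, and megakaryocyte gates 2.84% and 3.07% against 3.23% and 4.15%. In these 3 gates both 50-week mice again lay above both 14-week mice, with log2 ratios of 0.53, 0.49 and 0.31 and adjusted p from 0.356 to 0.445 in edgeR. With only cells of 2000 or more UMIs and under 5% mitochondrial UMIs, the ages overlapped in all 3 gates, at log2 ratios of 0.21, 0.20 and 0.03, and a 5-UMI gate also made the megakaryocyte shares overlap. Those stricter cell limits did not act alike on the ages. They kept 2427 of 5109 and 3596 of 7068 cells in the 14-week male and female, but 3594 of 4989 and 3649 of 4912 in the 50-week pair.

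Granulocyte-monocyte cells were 42.0% and 39.0% of the 14-week pools and 37.1% and 37.8% of the 50-week pools (log2 ratio -0.11, adjusted p = 0.754). Lymphoid cells, at 1.14% and 1.005% against 1.16% and 0.529%, overlapped between the ages, and so did the few eosinophil cells, at 0.137% and 0.226% against 0.421% and 0.163%. Cells in no class were 11.7%, 8.97%, 10.9% and 11.3% in the same order of mice. Of the 9 classes 0 passed the edgeR test and 0 passed limma, while 1, the stem-marker class, had an unadjusted p under 0.05. Between 577 and 635 cells per mouse sat exactly at the gate minimum and 415 to 522 passed the minimum in more than 1 gate, so the gates are cuts through a continuum.

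**Figure D1:**
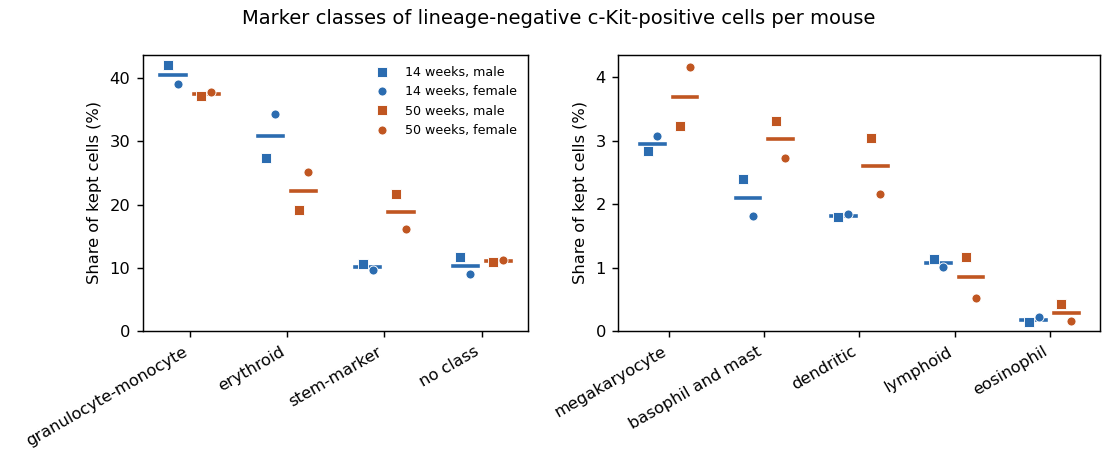
Share of kept cells in each marker class (y axis, percent of cells of that mouse), with 1 point per mouse (squares male, circles female, blue 14 weeks, orange 50 weeks) and a bar at the mean of each age. The 50-week points for stem-marker cells, at 21.7% and 16.1%, lie above the 14-week points at 10.6% and 9.73%, and the erythroid points lie lower.

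UMIs were next summed over all kept cells of each mouse and compared with the edgeR quasi-likelihood test over 15192 genes, in a fit with all 8 libraries, age and sex. Levels below are given as CPM, the summed UMIs of a gene scaled to a common library total after TMM normalisation. In such sums, fewer cells of a type and less RNA per cell cannot be told apart. At an adjusted p under 0.05, 46 genes were higher at 50 weeks, which is 0.303% of those tested, and 4 were lower, or 0.0263%. At an unadjusted p under 0.05 there were 1314 (8.65%) and 1235 (8.13%). All 50 called genes had both 50-week mice on the same side of both 14-week mice, a separation that 3319 genes (21.8%) showed upwards and 3525 (23.2%) downwards, and the median log2 fold change of all genes was -0.01. A sex-by-age interaction was called for 0 genes in edgeR. The count of calls rested on few animals, since it was 22 higher and 102 lower without the 14-week male, 12 and 4 without the 14-week female, 2 and 0 without the 50-week male, and 0 and 0 without the 50-week female. DESeq2 on the same sums called 401 higher (2.64%) and 293 lower (1.93%). An edgeR fit of these 4 mice alone with sex, which pairs them by sex but leaves 1 residual degree of freedom, called 329 higher (2.24%) and 315 lower (2.14%) of 14692 genes. The same 4 mice without sex gave 2 higher and 0 lower, and the 8 libraries without sex 1 and 0. Cells under the stricter UMI and mitochondrial limits, which removed a larger part of the 14-week cells, also gave 1 and 0.

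The named genes were the 12 that rose most and the 1 that fell among called genes with a group mean of at least 5 CPM, out of 21 eligible rises and 1 fall. The largest rise was that of Nupr1 (chr7:126623249-126630861, minus strand, GRCm38), a stress-responsive chromatin-associated regulator. It stood at 1.28 and 1.40 CPM in the 14-week male and female and at 18.2 and 8.44 CPM in the 50-week male and female. Both 50-week mice were several-fold above the younger pair and differed from each other, and the log2 fold change was 3.14 ± 0.33 (SE; adjusted p = 0.0297). In cells thinned to equal depth, Nupr1 had a UMI in 0.196% and 0.226% of cells at 14 weeks and in 2.53% and 1.06% at 50 weeks. Without thinning the shares were 2.17%, 2.21%, 13.5% and 7.96%. In the basophil and mast cell gate, which held few Nupr1 UMIs, the unthinned shares were 0.820% and 1.56% at 14 weeks and 2.42% and 2.99% at 50 weeks.

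Sult1a1, a phenol sulfotransferase gene that lies near Nupr1 (chr7:126672865-126676432, minus strand), rose from 0.746 and 0.870 CPM to 7.90 and 6.69 CPM (log2 fold change 3.13 ± 0.39, adjusted p = 0.0335). Pim1 (chr17:29490753-29496112, plus strand), a serine/threonine kinase gene induced by cytokine signalling, rose from 48.6 and 52.2 CPM to 134 and 161 CPM (1.54 ± 0.17, adjusted p = 0.0326). Serpina3g (chr12:104236245-104241939, plus strand), a serine protease inhibitor, rose from 29.5 and 28.3 CPM to 93.8 and 61.9 CPM (1.42 ± 0.20, adjusted p = 0.0482). Neither 50-week mouse overlapped with the 14-week mice for these 3 genes, and the 50-week male was higher than the female for Sult1a1 and Serpina3g but lower for Pim1. Serpina3g belongs to a cluster of near-identical genes whose reads may be split, so its level is uncertain. Without cells holding a UMI of the shortened stem list (that list without its 5 called genes), the log2 fold changes of Nupr1 and Sult1a1 were 2.02 and 1.15.

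The promoters of 2 of these genes and of the erythropoietin receptor gene Epor, which is described with the erythroid genes, are shown because they hold matches to the motifs searched. Each runs 5′ to 3′ from 250 bases before to 50 after the start of the RefSeq gene model in GRCm38.p6, which for Nupr1 lies inside the longer gene span given above, at chr7:126625421-126625720 on the minus strand for Nupr1, chr12:104235897-104236196 on the plus strand for Serpina3g and chr9:21963527-21963826 on the minus strand for Epor. Capitals mark matches to TTCNNNGAA, the core letters bound by STAT factors, or to AGATAA, a core bound by GATA factors, on either strand (TTATCT is AGATAA read on the other strand).
Nupr1: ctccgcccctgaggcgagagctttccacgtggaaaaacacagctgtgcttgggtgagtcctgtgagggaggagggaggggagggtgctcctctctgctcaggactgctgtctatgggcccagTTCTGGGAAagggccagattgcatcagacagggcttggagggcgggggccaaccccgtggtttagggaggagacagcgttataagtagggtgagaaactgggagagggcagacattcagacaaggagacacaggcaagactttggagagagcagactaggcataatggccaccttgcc
Serpina3g: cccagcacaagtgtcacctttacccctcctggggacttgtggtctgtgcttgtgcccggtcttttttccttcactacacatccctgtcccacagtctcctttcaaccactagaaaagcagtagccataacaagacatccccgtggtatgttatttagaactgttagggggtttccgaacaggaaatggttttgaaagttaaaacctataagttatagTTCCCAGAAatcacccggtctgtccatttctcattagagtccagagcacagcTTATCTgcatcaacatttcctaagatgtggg
Epor: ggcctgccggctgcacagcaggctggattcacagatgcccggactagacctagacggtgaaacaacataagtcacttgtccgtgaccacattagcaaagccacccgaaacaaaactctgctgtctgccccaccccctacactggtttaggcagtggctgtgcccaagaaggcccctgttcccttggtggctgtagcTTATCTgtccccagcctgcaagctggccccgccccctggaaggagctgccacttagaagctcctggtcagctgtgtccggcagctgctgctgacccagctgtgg
TTCNNNGAA was present in 8.30% of 32851 promoters of the same length and in 3 of the 10 risen named genes with a promoter in the table (Nupr1, Casp12 and Serpina3g). AGATAA was present in 11.2% of all promoters, in 1 of those 10, and in 6 of 17 matched early erythroid genes (Epor, Ces2g, Hemgn, Sphk1, Icam4 and Kel). The shares of all promoters count each promoter, while a gene counted if any of its promoters matched, so the units differ. A match is a description of the letters in these windows and not evidence of binding.

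The other named rises included adhesion and surface molecules of stem cells, endothelium and platelets. Selp (chr1:164115264-164150026, plus strand), which encodes P-selectin, was at 1.73 and 2.90 CPM at 14 weeks and 7.88 and 8.77 CPM at 50 weeks (log2 fold change 1.88 ± 0.17). Procr (chr2:155751117-155755471, plus strand), the endothelial protein C receptor used to isolate HSC, was at 3.78 and 2.25 CPM against 10.7 and 5.37 CPM (1.38 ± 0.12), and both genes had an adjusted p of 0.0237. Esam (chr9:37528078-37538319, plus strand), an endothelial cell adhesion molecule, was at 2.34 and 2.75 CPM against 9.67 and 6.38 CPM (1.61 ± 0.20). All 3 are also markers on lists used here, Procr and Esam of stem cells and Selp of megakaryocytes, and the groups did not overlap for any of them. With the same class weights in every mouse, their log2 fold changes were 1.24 (Selp), 0.69 (Procr) and 0.91 (Esam), and that of Casp12, described next, was 0.84. That setting used limma on log2 of CPM plus 1 in place of edgeR. Adding 1 CPM by itself shrinks the fold changes of genes this low. The part of class makeup in these smaller values was not tested.

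Ifitm1 (chr7:140967221-140969825, plus strand), an interferon-induced transmembrane gene expressed in immature blood cells, was the most abundant of the named genes. It stood at 182 and 134 CPM at 14 weeks and at 632 and 408 CPM at 50 weeks (1.71 ± 0.20, adjusted p = 0.0334). Its UMIs were found after thinning in 15.8% and 13.6% of cells at 14 weeks and in 40.7% and 29.8% at 50 weeks. Free RNA can add UMIs to cells that do not express a gene, and no class here is known to lack Ifitm1. In the megakaryocyte gate the shares were lower, at 6.90% and 8.76% against 13.04% and 9.80%. The remaining rises were Casp12 (an inflammatory caspase family gene, 1.51 ± 0.16), Clu (clusterin, a secreted chaperone, 1.45 ± 0.18), Basp1 (a membrane-associated signalling protein, 1.19 ± 0.15) and Homer2 (a scaffold protein, 1.17 ± 0.16). Their 14-week values lay between 1.88 and 14.9 CPM, and in each gene both 50-week mice were higher, at 6.11 and 4.65 CPM for Clu and 41.9 and 22.9 CPM for Basp1. The 1 named fall was Slc38a9 (chr13:112660751-112738749, plus strand), the lysosomal amino acid transporter that signals arginine to mTORC1, from 38.5 and 51.6 CPM to 23.2 and 28.4 CPM (-0.80 ± 0.11, adjusted p = 0.0482).

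**Figure D2:**
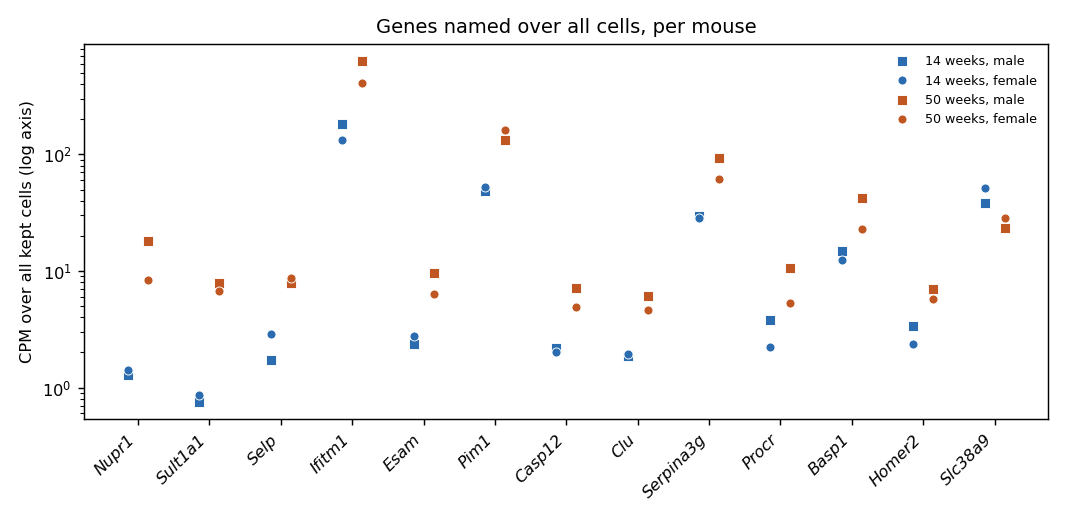
CPM of the 13 named genes in the 4 mice (y axis, log scale), with 1 point per mouse (squares male, circles female, blue 14 weeks, orange 50 weeks). The 12 risen genes have both 50-week points above both 14-week points, and Slc38a9 has them below.

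Among the called genes below the abundance limit, the following were chosen after their values were seen. Homeobox B cluster genes, which pattern axial identity and are expressed in HSC, were Hoxb2 (0.966 and 0.947 CPM at 14 weeks, 2.78 and 2.73 CPM at 50 weeks), Hoxb5 (0.268 and 0.217 CPM against 1.24 and 1.04 CPM) and Hoxb8 (0 and 0.014 CPM against 0.440 and 0.254 CPM). Clec1a, a C-type lectin receptor gene, was at 0.402 and 0.435 CPM against 4.602 and 2.58 CPM, and Bmpr1a, a bone morphogenetic protein receptor gene, at 0.0765 and 0.0842 CPM against 1.33 and 1.91 CPM. Hoxb8 and Bmpr1a were near the lower limit of detection at 14 weeks, so their fold changes depend on few UMIs. Apart from Slc38a9, the called falls were Eps8l1, Slc5a2 and Gnasas1, all with at most 5.65 CPM in any of the 4 mice. Gnasas1 and the risen Hoxb3os are antisense transcripts, and the use of strand in counting is not given in the sources used here.

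Marker lists were read next, by counts over their genes. The lists were chosen with earlier results of these data known, and the stem cell list holds the named gene Nupr1. Their counts beside the shares over all genes are therefore a description and no independent evidence. Of 491 list genes tested in 31 lists, 6 were called higher and 0 lower in edgeR, against 0.303% and 0.0263% of all genes. Of the 26 genes of the stem cell list, 5 passed the test, all higher (Procr, Hoxb5, Nupr1, Ifitm1 and Esam). In this list 24 genes had a positive log2 fold change and 21 had the 50-week mice apart and higher, against 21.8% of all genes. The list's median log2 fold change was 0.66, against -0.01 for all genes tested. Its summed level was 835 and 742 CPM at 14 weeks and 1683 and 1252 CPM at 50 weeks. Much of this sum and of its rise came from Ifitm1 (182 and 134 against 632 and 408 CPM) and Ifitm3 (231 and 262 against 504 and 375 CPM). Ifitm3 was not called and stays in the shortened list. Without the 5 called genes the remaining 21 had a median of 0.51 and sums of 645, 602, 1011 and 822 CPM. That 0 of these were called in edgeR over all 8 libraries was fixed by the removal and is no result. Among them 14 had an unadjusted p under 0.05, 12 were called by DESeq2 and 11 in the edgeR fit of the 4 mice alone. Over all genes the shares higher in those 3 tests were 8.65%, 2.64% and 2.24%. Mecom, a transcription factor that maintains HSC, was at 6.70 and 8.19 CPM at 14 weeks and 16.7 and 14.2 CPM at 50 weeks (1.04, adjusted p = 0.0573). The 8 genes of a multipotent progenitor list had a median of 0.18 with 0 called, 1 at an unadjusted p under 0.05 and 1 called by DESeq2, and their sums overlapped between the ages.

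Erythroid genes lay lower at 50 weeks, and whether they passed depended on the test, the libraries fitted and the sex term. Of 19 early erythroid genes 0 were called in edgeR over all 8 libraries and 15 were called lower in the fit of the 4 mice alone with sex. Without sex, the fit of the 4 mice called no gene of any kind lower. In edgeR over all 8 libraries 16 had an unadjusted p under 0.05 with a negative change. DESeq2 on the same 8 libraries called 12 lower. Over all genes the fit of the 4 mice called 2.14% lower, 8.13% had such an unadjusted p and DESeq2 called 1.93% lower. Their median was -0.86, 18 of 19 changes were negative and 16 had both 50-week mice below both 14-week mice, against 23.2% of all genes. The summed level was 3529 and 4769 CPM at 14 weeks and 1964 and 2520 CPM at 50 weeks. Klf1, the master transcription factor of red cell genes, was at 107 and 164 CPM against 62.5 and 89.4 CPM (-0.83, adjusted p = 0.120), and Epor, whose promoter is printed above, at 35.4 and 53.8 CPM against 18.2 and 29.9 CPM (-0.90, adjusted p = 0.121). Gata1 was at 49.2 and 67.3 CPM against 33.1 and 46.1 CPM (-0.56, adjusted p = 0.120). The 14-week female was highest and the 50-week male lowest for each of these 3 genes. Sphk1, a sphingosine kinase gene, had the lowest adjusted p of the list (0.0797, log2 fold change -1.33), with 46.8 and 71.9 CPM against 18.7 and 28.6 CPM.

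The 13 late erythroid genes had a median of -2.03 with 12 negative, 0 called in edgeR, 11 at an unadjusted p under 0.05, 6 called by DESeq2 and 9 called in the fit of the 4 mice alone. Over all genes 8.13% were lower at that unadjusted p, 1.93% by DESeq2 and 2.14% in that fit. Their sum was 131 CPM in the 14-week male, 356 CPM in the 14-week female, and 89.7 and 119 CPM in the 50-week male and female, so the 14-week female stood apart. Haemoglobin alpha (Hba-a1) was detected without thinning in 5.54% of cells of the 14-week male and 20.2% of the female, and in 2.10% and 4.46% at 50 weeks. Granulocyte-monocyte cells, which should lack it, held such UMIs in 1.30% and 6.82% of cells at 14 weeks and 0.324% and 1.19% at 50 weeks, at medians of 19047 to 23348 UMIs per cell. Its near-identical copy Hba-a2 makes its count uncertain. All 20 genes of haem synthesis and iron handling had a negative change (median -0.59), with 0 called in edgeR, 16 at an unadjusted p under 0.05, 8 called by DESeq2 and 13 called in the fit of the 4 mice alone.

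**Figure D3:**
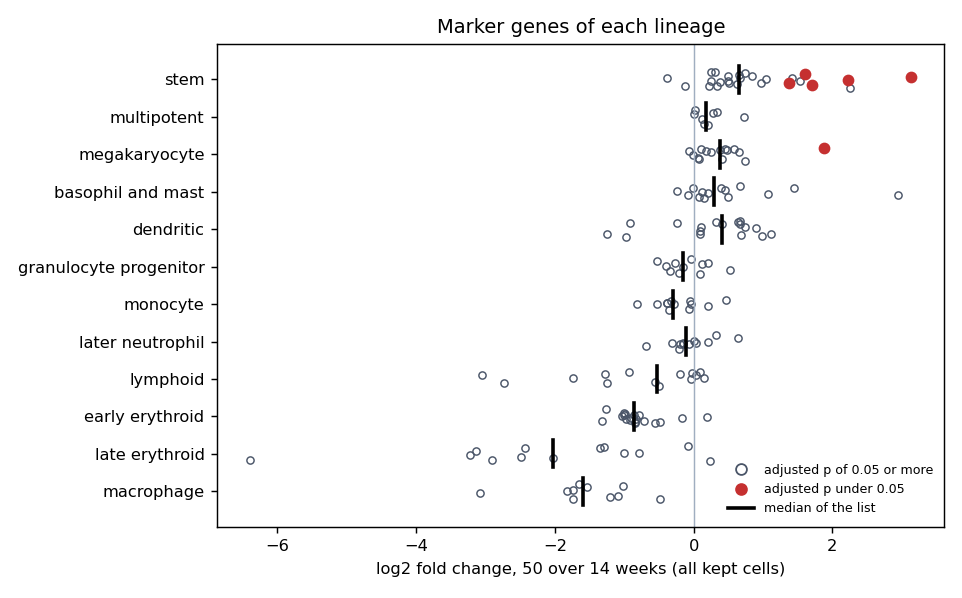
Log2 fold change (50 over 14 weeks) of each tested gene of the marker lists, on the x axis, with 1 point per gene, filled where the adjusted p was under 0.05, and the list median as a black line. Stem cell genes lie mostly above 0 (median 0.66), and early and late erythroid genes mostly below (medians -0.86 and -2.03).

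In the fit of the 4 mice alone, 2.24% of all genes were called higher and 2.14% lower. That fit called higher 2 of the 15 megakaryocyte, 3 of the 14 basophil and mast cell, 3 of the 17 dendritic and 4 of the 9 MHC class II genes. It called 1 dendritic gene lower. For the lists of the next paragraph, it called 1 of the 11 granulocyte progenitor genes higher and 1 lower. It called 0 of the 12 later neutrophil genes, and 1 of the 12 monocyte and 3 of the 14 lymphoid genes lower. Among the other lineages, 1 of 15 megakaryocyte genes was called in edgeR over all 8 libraries, Selp, with a list median of 0.38 and 13 positive changes. This list held 4 positive genes at an unadjusted p under 0.05 and 3 called higher by DESeq2, against 8.65% and 2.64% of all genes. The 14 basophil and mast cell genes had a median of 0.29 with 0 called in edgeR, 3 positive and 1 negative at an unadjusted p under 0.05 and 1 called by DESeq2. Fcer1a, the alpha chain of the high-affinity IgE receptor, was at 0.794 and 2.43 CPM at 14 weeks and 13.8 and 9.73 CPM at 50 weeks (2.94 ± 0.66, adjusted p = 0.0990). The 17 dendritic genes had a median of 0.41 and the 9 genes of MHC class II, which presents antigen to helper T cells, 0.66, both with 0 called in edgeR. These lists share H2-Aa, H2-Ab1 and H2-Eb1, so they are not separate results. At an unadjusted p under 0.05 they held 3 positive and 2 negative genes and 3 positive genes, with 1 and 2 called higher by DESeq2 and 1 dendritic gene called lower. Cd74, the invariant chain of MHC class II, was at 87.5 and 113 CPM against 184 and 140 CPM (0.68, adjusted p = 0.341).

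Granulocyte progenitor, later neutrophil and monocyte lists had medians of -0.16, -0.11 and -0.30, with 0 called among 11, 12 and 12 genes in edgeR and 0 in DESeq2. At an unadjusted p under 0.05 they held 1 positive, 0 and 2 negative genes. Ly6c2, a monocyte surface antigen, was at 139 and 130 CPM against 67.1 and 86.6 CPM (-0.81, adjusted p = 0.271). The 14 lymphoid genes had a median of -0.53 with 11 negative, 0 called in edgeR, 5 at an unadjusted p under 0.05 and 2 called lower by DESeq2. Over all genes 8.65% were higher and 8.13% lower at that unadjusted p, and DESeq2 called 2.64% higher and 1.93% lower. Ebf1, a B cell specification factor, was at 0.957 and 1.32 CPM against 0.325 and 0.039 CPM (-3.05 ± 0.73, adjusted p = 0.106), and Rag2, of the antigen receptor recombinase, at 1.14 and 0.806 CPM against 0.430 and 0.381 CPM (-1.25, adjusted p = 0.122). Dntt, an early lymphoid polymerase, overlapped between the ages at 53.7, 39.1, 67.9 and 36.7 CPM.

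The gene calls were then repeated inside classes, leaving out the genes that define the gates. The named rises were chosen on sums that contain these same cells, so their direction and separation within a class are a description and no independent evidence. In the granulocyte-monocyte gate 83 genes were higher (0.614% of 13509) and 44 lower (0.326%), and 28 of these 127 genes were also called over all cells. All 11 tested named rises were higher in this gate with the ages apart, as were 22.9% of all genes tested in it, and 10 passed. In other classes 2 of 11 passed in the megakaryocyte gate, where 8 had the ages apart (15.8% of all genes in that gate), and 0 of 10 in the dendritic gate, where 6 did (18.6%). In the basophil and mast cell gate 0 of 5 passed with 5 apart (16.6%), and in no class 0 of 7 with 6 apart (18.5%), and all of these were higher at 50 weeks. The named fall, Slc38a9, passed in none of the classes tested. It was lower at 50 weeks in each of them except the megakaryocyte gate, where its change was positive. In the granulocyte-monocyte gate Pim1 was at 40.1 and 54.1 CPM at 14 weeks and 136 and 167 CPM at 50 weeks (1.69 ± 0.14, adjusted p = 0.00306). Without thinning it had a UMI in 45.9% and 47.1% of the cells of this gate against 82.9% and 78.9%. In the same gate Nupr1 was at 0.608 and 0.452 CPM against 10.4 and 3.35 CPM (3.59 ± 0.29, adjusted p = 0.00306), and Ifitm1 at 99.7 and 111 CPM against 549 and 277 CPM (1.94 ± 0.31, adjusted p = 0.0322). Neither 50-week mouse overlapped with the 14-week mice for these genes.

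Other genes of the granulocyte-monocyte gate were chosen after their values were seen. Hsp90aa1, a cytosolic chaperone, rose from 1115 and 1248 CPM to 1977 and 1687 CPM (0.63 ± 0.10), Bcl3, a regulator of NF-kB target genes, from 2.02 and 2.64 CPM to 8.90 and 5.83 CPM (1.65 ± 0.27), and Socs3, a feedback inhibitor of cytokine signalling, from 0.543 and 1.09 CPM to 8.95 and 3.17 CPM (2.72 ± 0.50). Falls included Clec12a, an inhibitory myeloid lectin receptor, from 300.2 and 279.6 CPM to 193 and 160 CPM (-0.72 ± 0.12), and Ighm, the immunoglobulin mu heavy chain, from 97.2 and 91.6 CPM to 48.3 and 58.1 CPM (-0.83 ± 0.10). Of the 127 genes 3 were on the macrophage list and 2 on the late erythroid list. A UMI of the stem list shortened by its 5 called genes was present, after thinning, in 41.6% and 41.7% of the gate's cells at 14 weeks and in 51.2% and 51.9% at 50 weeks. Without those cells 6 genes were higher and 1 lower, Pim1 among the higher at 1.80. Leaving out the 50-week male left 2 calls, the 14-week male 10, the 14-week female 66 and the 50-week female 117.

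In the erythroid gate the 11 tested named rises were all higher, with both 50-week mice above both 14-week mice (21.9% of all genes in that gate), but Nupr1 was the 1 called gene (0.00787% of 12712). It was at 1.34 and 1.08 CPM against 7.98 and 5.14 CPM (2.39 ± 0.24, adjusted p = 0.0466). No gene (0%) was called lower in edgeR, and 917 and 961 genes were higher and lower at an unadjusted p under 0.05. Without the 14-week male 814 genes were called, without the 14-week female 5, and without either 50-week mouse 0. The megakaryocyte gate had 8 genes higher (0.0762%) and 2 lower (0.019%). Among them Aldh1a1, a retinaldehyde dehydrogenase gene, went from 20.0 and 29.3 CPM to 66.4 and 75.3 CPM (1.49 ± 0.18, adjusted p = 1.74e-05) and Nupr1 from 4.71 and 11.5 CPM to 53.5 and 22.4 CPM (2.02 ± 0.29). Its 2 falls were Scd2 and the cold-inducible RNA-binding gene Rbm3, and its calls were 0 without the 14-week male, 17 without the 14-week female, 4 without the 50-week male and 10 without the 50-week female. Aldh1a1, Scd2 and Rbm3 were chosen after their values were seen.

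In stem-marker cells, tested without the stem-list and gate genes, 10 genes were higher (0.0821%) and 6 lower (0.0493%), and 7 of these 16 were also called over all cells. All 7 tested named rises were higher and apart (22.7% of all genes in these cells), and 2 passed. Sult1a1 went from 2.73 and 3.36 CPM to 27.7 and 33.2 CPM (3.33 ± 0.48, adjusted p = 0.0265) and Clu from 1.67 and 1.42 CPM to 9.65 and 7.11 CPM (2.41 ± 0.31, adjusted p = 0.0150). The ages did not overlap for either gene. Among the falls, chosen after their values were seen, Flt3, the receptor of multipotent and lymphoid-primed progenitors, was at 106 and 82.8 CPM against 60.7 and 50.4 CPM (-0.76 ± 0.10), and Hmga2, a chromatin protein of early-life HSC, at 20.6 and 16.4 CPM against 7.90 and 6.15 CPM (-1.40 ± 0.18). The count of calls was 0 without the 14-week male, 20 without the 14-week female or the 50-week male, and 429 without the 50-week female.

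In the remaining classes few genes passed the test. Cells of no class had 1 gene higher (0.00857%), the antisense gene Tnfsf13os, and 7 lower (0.06%), among them Hmga2 from 21.4 and 15.5 CPM to 5.17 and 3.37 CPM and Clec12a from 53.3 and 47.8 CPM to 25.7 and 27.9 CPM. Its 8 calls were 7 without the 14-week male, 60 without the 14-week female and 0 without either 50-week mouse. The basophil and mast cell gate had 2 genes higher (0.0222%) and 0 lower (0%) in edgeR, with 177 and 176 at an unadjusted p under 0.05. These were the chemokine gene Ccl2, at 0 and 2.06 CPM against 1.61 and 33.4 CPM, where the ages overlapped, and the mast cell protease gene Mcpt2, at 0 and 1.37 CPM against 22.1 and 50.9 CPM. Leaving out the 14-week female left 0 calls and the 50-week female 1. Cenpv, a centromere-associated protein, and Scd2, a fatty acid desaturase, were each called in 4 classes, and Clec1a, Eps8l1, Nupr1, Plscr2 and Slc15a2 in 3. All genes of this paragraph apart from Nupr1 were named after their values were seen.

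**Figure D4:**
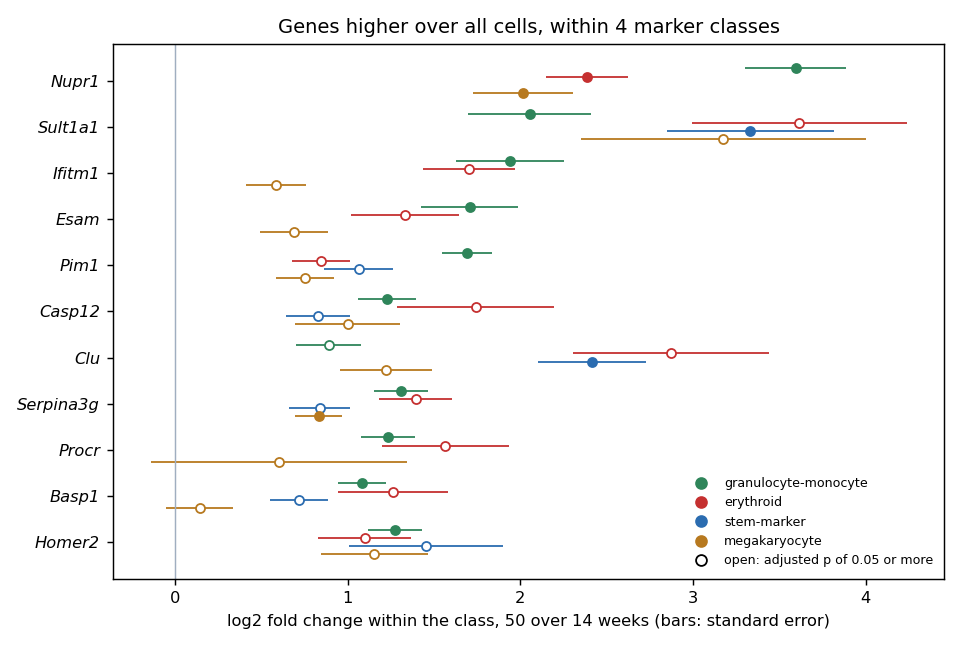
Log2 fold change (50 over 14 weeks) of the named rises within 4 marker classes, on the x axis, with bars of 1 standard error and filled points for an adjusted p under 0.05. All points lie above 0, and the granulocyte-monocyte gate holds 10 of the genes that passed.

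Genes of marrow macrophages, a cell type that the sort should remove, are given beside these results. All 10 genes of the macrophage list were lower at 50 weeks with the ages apart, with a median of -1.59, 0 called in edgeR, 9 at an unadjusted p under 0.05, 4 called lower by DESeq2 and 7 called lower in the edgeR fit of the 4 mice alone. Over all genes 23.2% were apart and lower, and the shares lower in those 3 tests were 8.13%, 1.93% and 2.14%. Their sum was 38.5 and 68.9 CPM at 14 weeks and 19.7 and 25.4 CPM at 50 weeks. In the older mice it was 25.9 and 21.6 CPM at 78 and 79 weeks and 35.8 and 30.9 CPM at 95 weeks. Adgre1, encoding the F4/80 antigen, was at 1.77 and 1.80 CPM against 0.398 and 0.673 CPM (-1.75, adjusted p = 0.0647). In the dendritic gate 24 genes were lower (0.262%) and 3 higher (0.0327%), and 9 of the 27 were on the macrophage list. The complement gene C1qa was there at 172 and 309 CPM against 39.2 and 57.3 CPM (-2.31 ± 0.28), and the adhesion gene Vcam1, of erythroblastic island macrophages, at 48.6 and 84.9 CPM against 3.01 and 0.819 CPM (-4.86 ± 0.47), both named after their values were seen. The calls in this gate numbered 6 without the 14-week female, 17 without the 50-week female, 19 without the 14-week male and 26 without the 50-week male. The part of macrophage RNA in the erythroid and dendritic differences was not tested.

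Markers of other cell types that the sort should remove were summed as well. T and NK cell genes summed to 5.93 and 3.50 CPM at 14 weeks and 4.38 and 2.14 CPM at 50 weeks, and stromal and endothelial genes to 35.8 and 27.9 CPM against 32.9 and 38.4 CPM. All 6 tested stromal and endothelial genes had a positive change (median 0.68), with 0 called in edgeR, 4 at an unadjusted p under 0.05 and 0 called by DESeq2. Over all genes the shares higher in those tests were 0.303%, 8.65% and 2.64%. Kdr, an endothelial growth factor receptor gene, was at 0.363 and 0.435 CPM against 0.639 and 0.937 CPM, and the part of such cells in the rises of Selp, Procr and Esam was not tested. Mature B and plasma cell genes summed to 14.9, 2.15 and 2.95 CPM in the 14-week male and female and the 50-week male but 271 CPM in the 50-week female, of which the kappa light chain gene Igkc made 255 CPM. Sums of the B and plasma cell genes were also high in 3 of the 4 older mice, at 261, 343 and 132 CPM, against 1.23 CPM in the 95-week female.

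No gene of the cell state lists passed the edgeR test over all 8 libraries. S phase and G2/M phase lists had medians of -0.10 and -0.14, with 25 of 30 and 41 of 47 genes negative. Lists of interferon response, MHC class I, immediate-early genes, inflammation, protein stress and glycolysis had medians from 0.11 to 0.21, and p53 targets -0.14. In all of these 0 genes were called in edgeR, with at most 5 in 1 direction at an unadjusted p under 0.05 and at most 2 called by DESeq2. Over all genes 8.65% were higher and 8.13% lower at that unadjusted p, and DESeq2 called 2.64% higher and 1.93% lower. The inflammation list held Socs3, at 0.526 and 0.722 CPM at 14 weeks and 10.3 and 2.79 CPM at 50 weeks (3.14 ± 0.65, adjusted p = 0.0923). The lists of genes mutated in clonal haematopoiesis and of cytokine receptors had medians of -0.01 and -0.02, again with 0 called in edgeR, 1 and 6 at an unadjusted p under 0.05 and 0 and 3 called by DESeq2. In the fit of the 4 mice alone, 4 of the 22 cytokine receptor genes were called higher and 1 lower. That fit called higher 3 of the 23 inflammation, 2 of the 19 immediate-early and 1 of the 16 glycolysis genes, and 0 genes of the other lists of this paragraph. Over all genes it called 2.24% higher and 2.14% lower.

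Values in the older mice of the series are given for orientation. The 95-week libraries carry names of another library series than the other 6, so age and library series cannot be told apart for them. Nupr1 was at 27.8 and 10.7 CPM in the 78-week male and 79-week female and at 18.9 and 8.31 CPM in the 95-week male and female. Pim1 was at 90.7, 87.0, 47.2 and 78.3 CPM and Slc38a9 at 26.4, 32.1, 60.1 and 58.0 CPM in the same order. Both 95-week mice lay above both 14-week mice for Slc38a9 and below both 50-week mice for Pim1. Stem-marker cells made up 16.4% and 14.1% at 78 and 79 weeks and 15.0% and 13.6% at 95 weeks, and the erythroid gate 16.6%, 20.1%, 37.9% and 30.2%. No test was run on these later ages here, though all 8 libraries enter the fit. With the 95-week libraries left out, 126 genes were higher and 64 lower at 50 weeks than at 14 weeks.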

How the data were processed

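Lineage-negative, c-Kit-positive marrow cells of 1 wild-type mouse per library were profiled by 10x single-cell RNA sequencing. The deposited values are UMI counts per gene and cell, made by the authors with Cell Ranger (6.0.0 per the file headers) against mm10. The labels name Chromium v.3. Whole-number counts were used as deposited, from cells with 1000 or more UMIs and under 10% mitochondrial UMIs. Doublets were not removed here.

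Members and gene lists were chosen with earlier results of these data known. Counts were summed per mouse and tested with edgeR 4.0.16 in R 4.3.3 (quasi-likelihood, TMM, filterByExpr, age and sex over all 8 libraries, which leaves 3 residual degrees of freedom, Benjamini-Hochberg adjustment). Named genes were the 12 largest changes per direction among genes called, apart between ages and at 5 CPM or more in a group. Class cell counts were tested with edgeR against all kept cells, and p-values of single shares by an exact permutation test. DESeq2 1.42.0 and limma 3.58.1 were alternatives, as were other filters, thinning depths, gates and leaving out each mouse. Scripts were tested on simulated data. Gene positions are from GRCm38 and promoters from RefSeq.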

Additional observations from a re-analysis of the deposited data

How the results depend on the processing

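All 13 named genes kept their direction under every alternative run over all cells, though 140 of 273 values no longer passed the threshold. Log2 fold changes fell furthest to 2.02 for Nupr1 and 1.15 for Sult1a1 without cells holding a UMI of the shortened stem list, and to 1.24 for Selp, 0.91 for Esam, 0.84 for Casp12 and 0.69 for Procr with equal class weights. Equal class weights also gave 2.29 for Nupr1 and 1.87 for Sult1a1, and the stricter cell limits 2.38 for Sult1a1. The values with equal class weights are from limma on log2 of CPM plus 1, which by itself shrinks fold changes of low genes. Nupr1 was 2.53 without the 14-week male and 3.89 without the 14-week female, and Sult1a1 3.77 without the latter. The fall of Slc38a9 shrank to -0.44 at the weakest of 17 alternatives and passed in 7 of them. Against 46 higher and 4 lower genes, counts were 329 and 315 with the 4 libraries and sex (1 residual degree of freedom), 2 and 0 with them without sex, 126 and 64 with 6 libraries, 1 and 0 with no sex term, 121 and 18 with total UMIs, 401 and 293 with DESeq2, 246 and 168 with no filter, 4 and 0 with a 5 CPM filter, and 1 and 0 in cells with 2000 or more UMIs and under 5% mitochondrial UMIs. They were 25 higher with cells capped at 5000 UMIs, 3 and 0 with limma on mean CPM per cell, 15 higher with equal class weights, 4 and 0 without stem-marker cells and 0 and 0 without cells holding a UMI of the shortened stem list. Both of these last, and the shortened stem list, were chosen after seeing the data. Leaving out 1 mouse gave 0 to 22 higher and 0 to 102 lower. The cause was not tested.

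The stem-marker class passed, as the 1 class of 9, with a 5-UMI gate, another random draw, the stricter cell limits and the 4 libraries alone. It did not pass under the other 6 settings or with any mouse left out. Log2 ratios were 0.15 (no thinning) to 1.03 over all 10 settings, and 0.75 to 1.01 with 1 mouse left out. Log2 share ratios turned for granulocyte-monocyte cells (0.069 at 3000 UMIs, 0.12 with no thinning), lymphoid cells (0.33) and eosinophils (-0.16) with the stricter limits. Leaving out 1 mouse gave -0.53 to 1.70 for eosinophils (lowest without the 50-week male) and -0.22 to 0.46 for no class (lowest without the 14-week female).

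Within classes, calls with the 4 libraries, and then without cells holding a UMI of the shortened stem list, were 419 and 7 (granulocyte-monocyte), 164 and 5 (dendritic), 31 and 1 (megakaryocyte), 838 and 0 (erythroid) and 183 and 5 (no class). With the 4 libraries they were 22 (basophil and mast) and 113 (stem-marker). A 5-UMI gate gave 4 (basophil and mast), 5 (megakaryocyte), 2 (erythroid) and 2 (no class). Leave-one-out calls ranged over 2 to 117, 6 to 26, 0 to 17, 0 to 814, 0 to 60, 0 to 2 and 0 to 429 for granulocyte-monocyte, dendritic, megakaryocyte, erythroid, no class, basophil and mast, and stem-marker cells. The labels carry no replicate numbers, so mice can be paired by sex only, which the fit of the 4 libraries with sex does.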
